A study of Mus musculus with 6 samples.

Results

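The genes described here are 43 genes of the lysosome: 9 proteases, 7 glycosidases, 6 lipid-handling proteins, 5 membrane proteins, progranulin, 2 transcription factors and 13 subunits or accessory proteins of the vacuolar proton pump. They were chosen by name, and all 43 were found among the 56980 genes of the deposited table and passed the filter on low counts. RNA had been sequenced from monocytes sorted out of mouse B16F10-mCherry tumours, a transplanted melanoma line that carries a red fluorescent marker, gated as CD11b+ Ly6Chi Ly6G-. One group (LNP-GFP, 3 libraries) came from tumours treated with lipid nanoparticles (LNP) labelled GFP, for green fluorescent protein, and the other (LNP-Gsdme, 3 libraries) from tumours treated with nanoparticles labelled Gsdme, for the pore-forming protein gasdermin E. All 6 libraries carry the genotype label WT. Dose, time, age and sex are not given in the labels. The comparison asks how gene expression in the tumour monocytes differs after the Gsdme particles. Whether each library is a separate animal is not stated, and the p-values then cover only the spread among these 6 libraries, which may be technical.

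Lysosomes are acidic compartments in which hydrolases take apart proteins, glycans, lipids and nucleic acids delivered by endocytosis, phagocytosis and autophagy. The vacuolar ATPase (V-ATPase) acidifies them: its cytosolic V1 sector hydrolyses ATP, and its membrane V0 sector moves protons into the lumen. Monocytes and macrophages are rich in lysosomes, and the transcription factors TFEB and TFE3 are known to raise many lysosomal genes together by binding E-box sequences in their promoters.

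Total counts were 20233559 to 22932095 in the LNP-GFP libraries and 15991826 to 18751784 in the LNP-Gsdme libraries. Genes with a count numbered 24006 to 24383 and 22875 to 23607, and the mitochondrial share of counts was 2.02 to 2.41% and 1.30 to 1.61%. Each of these measures separated the groups fully, and their part in the results cannot be told apart from the treatment. LNP-GFP 3 stood apart from the other libraries by lying midway between LNP-GFP 1 and LNP-GFP 2: a mean of those libraries with a weight of 0.495 on LNP-GFP 1 left a residual 1.98 times counting error, and the next best pair for any library left 3.32 times. Of the 43 lysosomal genes, 36 (83.7%) had a LNP-GFP 3 value that lay between the other 2 LNP-GFP values, against 61.9% of all tested genes. Whether LNP-GFP 3 is independent of the other 2 LNP-GFP libraries was not tested. If it is not, n = 3 overstates that group and the p-values are too small. Without LNP-GFP 3, genes called higher and lower over the whole table went from 1008 and 851 to 64 and 24. Of the genes behind the sort, Itgam, which encodes CD11b, stood at 327 to 632 CPM (counts scaled to a common library size), Ly6g at 0 to 0.618 CPM, and Ly6c2, which encodes Ly6C, at 257, 267 and 211 CPM in the LNP-GFP libraries 1 to 3 and 1374, 1856 and 1400.4 in the LNP-Gsdme libraries 1 to 3 (log2 fold change 2.66, edgeR adjusted p = 0.00219). Gsdme itself stood at 2.79, 4.44 and 3.95 CPM in the LNP-GFP libraries 1 to 3 and 3.43, 2.68 and 3.20 in the LNP-Gsdme libraries 1 to 3. The sum of 10 fibroblast markers was 9229, 10208 and 9695 CPM in LNP-GFP 1 to 3 and 3099, 2308 and 5774 in LNP-Gsdme 1 to 3, with 5 of the 10 lower in LNP-Gsdme and 0 higher, and 0 called without LNP-GFP 3 (edgeR adjusted p of the 5 from 0.122 to 0.152). The sum of 9 melanoma markers was 341, 1857 and 1113 CPM in LNP-GFP 1 to 3 and 128, 179 and 762 in LNP-Gsdme 1 to 3, with 0 of 9 called. Of the other marker lists, 3 of 8 Ly6C-high monocyte genes were higher, 1 of 10 macrophage genes was higher and 1 lower, 1 of 7 tested NK cell genes and 1 of 8 tested neutrophil genes were higher, 3 of 8 dendritic cell genes were lower, and 0 of 8 T cell, 0 of 6 endothelial and 0 of 1 tested B cell genes were called. Without LNP-GFP 3, Ly6c2 was still called higher and 1 dendritic cell gene, Itgae, lower, and 0 of the macrophage, NK cell and neutrophil genes were called. The summed monocyte genes were 3472, 3922 and 3367 CPM in LNP-GFP 1 to 3 and 5097, 5284 and 4277 in LNP-Gsdme 1 to 3. The part of these shifts in cell markers in the results below was not tested. In sorted bulk samples, fewer cells of a type and less RNA per cell cannot be told apart.

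Most lysosomal genes differed little between the groups, and those that passed the test were lower in LNP-Gsdme. Of the 43 genes, 4 fell and 0 rose (edgeR quasi-likelihood test, Benjamini-Hochberg adjusted p below 0.05 over all 16010 tested genes). They were Gla and Gaa, which are glycosidases, Ctsk, a protease, and Atp6v0d2, a pump subunit. Over all tested genes 5.32% were called lower and 6.30% higher, beside 9.30% of the lysosomal genes called lower and 0 called higher. The median log2 fold change was -0.02 for the lysosomal genes and -0.01 for all tested genes, and the median absolute log2 fold change was 0.12 and 0.27. Among the 7070 tested genes with a mean of at least 20 CPM, which held 42 of the lysosomal genes, it was 0.21. Of those 7070 genes 7.61% were called lower, beside 3 (7.14%) of the 42 lysosomal genes, and 17.6% were called in either direction. At an unadjusted p below 0.05, 4 lysosomal genes were higher and 9 lower, against 16.1% and 15.4% of all tested genes. DESeq2 called 2 higher (Grn and Npc2) and 5 lower, and limma-voom called 0 higher and 2 lower. Without LNP-GFP 3, 0 rose and 1, Gla, fell, where 0.395% of all tested genes rose and 0.148% fell.

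Most genes that did not pass had narrow intervals. For 38 of these 39 genes the 95% interval of the log2 fold change lay within a 2-fold change in either direction, and for 31 it lay within 1.5-fold. The exception to the first bound was Npc1. The groups did not overlap in 15 of the 43 genes, 6 higher and 9 lower in LNP-Gsdme, where 37.8% of all tested genes did not overlap, 19.6% higher and 18.2% lower.

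**Figure D1:**
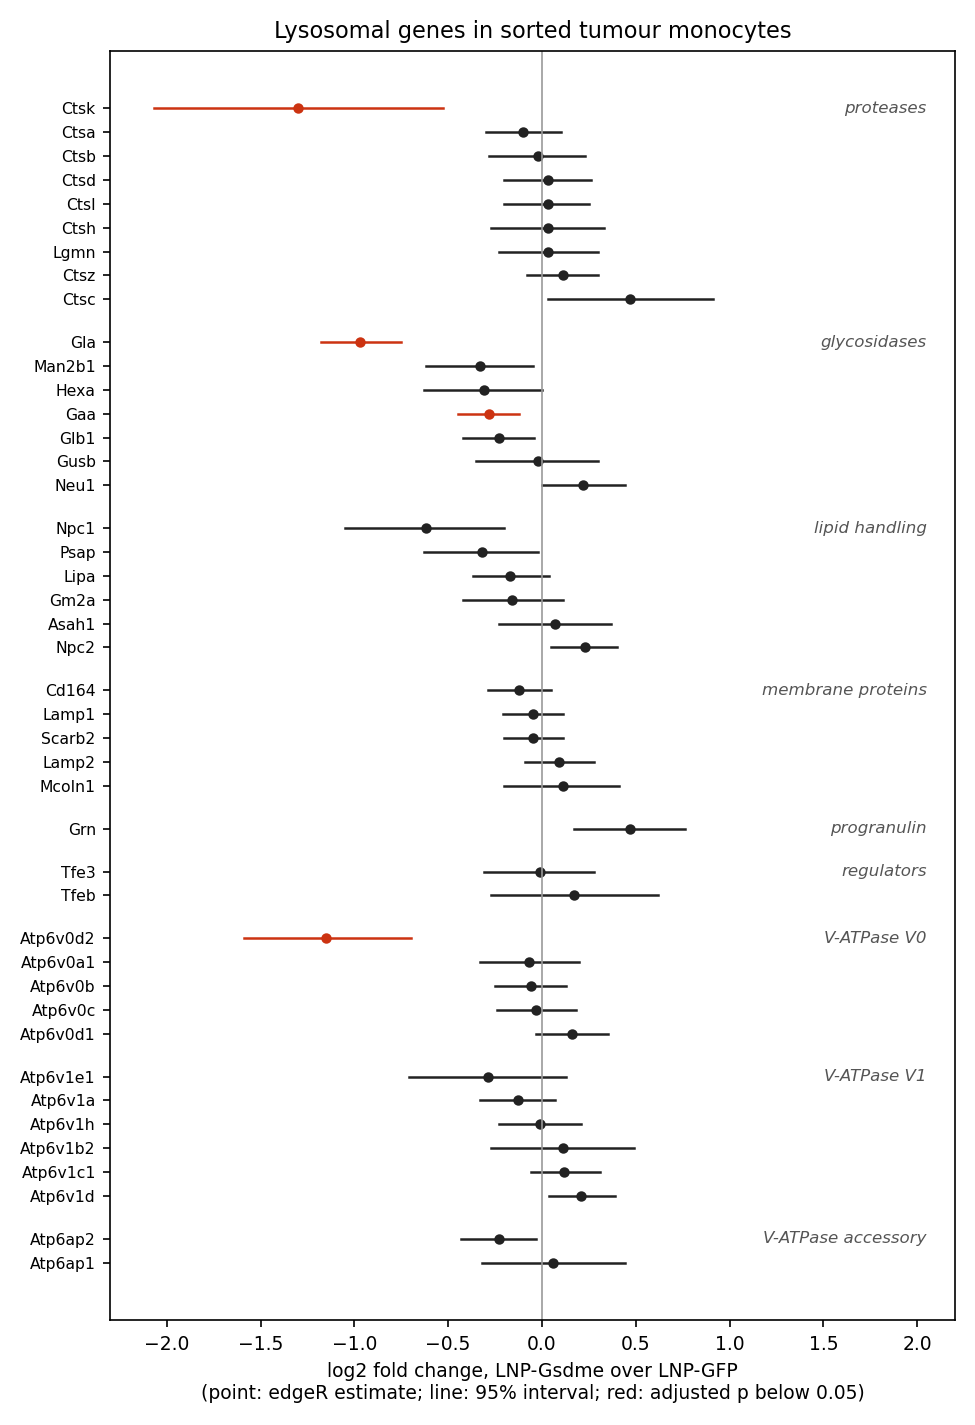
Log2 fold change of each of the 43 lysosomal genes (LNP-Gsdme over LNP-GFP, x axis) with its 95% interval, grouped by role, with genes that passed the test in red. The red genes Ctsk, Gla, Gaa and Atp6v0d2 lie to the left of 0, at -1.30, -0.97, -0.28 and -1.15, and the other 39 lie between -0.62 and 0.47.

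The cathepsins, the main lysosomal proteases, were among the most abundant genes of the set and only Ctsk passed the test. Ctsb, a cysteine protease with endo- and exopeptidase activity, had the highest level per gene length of the 9 proteases (912 FPKM, fragments per length and library total, mean of 6 libraries). It stood at 6347, 5365 and 5844 CPM in the LNP-GFP libraries 1 to 3 and 6262, 5846 and 5147 in the LNP-Gsdme libraries 1 to 3. The groups overlapped, and the log2 fold change was -0.02 (95% interval -0.28 to 0.23). Ctsz, a carboxypeptidase, had 830.0 FPKM and stood at 1119, 1195 and 1141 CPM in the LNP-GFP libraries 1 to 3 and 1323, 1257 and 1153 in the LNP-Gsdme libraries 1 to 3. Its groups overlapped too, because LNP-Gsdme 3 lay below LNP-GFP 2, and its log2 fold change was 0.11 (-0.08 to 0.30).

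Ctsk, the collagen-degrading cathepsin K of osteoclasts and fibroblasts, fell. It stood at 27.3, 55.1 and 42.5 CPM in the LNP-GFP libraries 1 to 3 and 14.4, 12.9 and 23.3 in the LNP-Gsdme libraries 1 to 3 (ENSMUSG00000028111, chromosome 3, 95406567 to 95416673, GRCm39). Every LNP-Gsdme library lay below every LNP-GFP library, but LNP-GFP 1 and LNP-Gsdme 3 were close. The log2 fold change was -1.30 with a SE of 0.32 (n = 3 per group, edgeR adjusted p = 0.0486). It did not pass when any of these libraries was left out, with the adjusted p in brackets: LNP-GFP 2 (0.122), LNP-GFP 3 (0.160), LNP-Gsdme 1 (0.161) or LNP-Gsdme 2 (0.156). Nor did Ctsk pass with library size as the only scaling (0.0555), limma-voom (0.0527), all genes with a count kept (0.0800), the stricter cut-off on low counts (0.0514) or the replicate number as a block (0.0825). The 6 libraries had the same order for Ctsk as for the summed fibroblast markers, highest in LNP-GFP 2 and lowest in LNP-Gsdme 2. Most of that sum came from collagen genes: in LNP-GFP 1, Col1a1, Col1a2 and Col3a1 stood at 3286, 2213 and 2945 of 9229 CPM. Singly, Col1a2, Col3a1, Dcn and Lum had this order. Col1a1, Pdgfra, Pdgfrb, Fap, Thy1 and Postn did not, and Thy1 had a log2 fold change of 0.40. The part of fibroblasts in the Ctsk result was not tested. At 19.2 FPKM Ctsk had the lowest level of the 9 proteases.

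Ctsc, the dipeptidyl peptidase that activates granule serine proteases, was higher without passing. It stood at 1277, 759 and 1019 CPM in the LNP-GFP libraries 1 to 3 and 1479, 1439 and 1314 in the LNP-Gsdme libraries 1 to 3, which left LNP-GFP 1 just under the LNP-Gsdme libraries. The log2 fold change was 0.47 (0.03 to 0.91, edgeR adjusted p = 0.139). Of the 14 alternative fits, Ctsc passed only with LNP-GFP 1 left out (edgeR adjusted p = 0.0314). Without LNP-GFP 3 the adjusted p was 0.289. The remaining proteases were centred close to 0. Their log2 fold changes were 0.03 for the aspartic protease Ctsd, 0.03 for the endopeptidase Ctsl, 0.03 for the aminopeptidase Ctsh and 0.03 for Lgmn, the asparaginyl endopeptidase legumain. That of Ctsa, the carboxypeptidase that protects sialidase and beta-galactosidase, was -0.10. Among these 5 genes the intervals reached from -0.30 at the lowest to 0.33 at the highest. The Ctsa locus overlaps Pltp, which had 29.6% as many counts, so the count of Ctsa is uncertain where reads fit both.

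The glycosidases, which remove sugars from glycoproteins, glycolipids and glycogen, had the lowest median of the larger classes: the median log2 fold change was -0.28, against 0.03 for the proteases, -0.16 for the lipid-handling genes, -0.05 for the membrane proteins and -0.03 for the pump. Of the 7, 2 fell and 0 rose, where 5.32% of all tested genes fell and 6.30% rose. At an unadjusted p below 0.05, 4 of the 7 were lower and 0 higher, against 15.4% and 16.1% of all tested genes. Without LNP-GFP 3, 1 fell, Gla.

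Gla, alpha-galactosidase A, which clears globotriaosylceramide and is deficient in Fabry disease, fell by 48.9%. It stood at 296, 336 and 331 CPM in the LNP-GFP libraries 1 to 3 and 166, 175 and 152 in the LNP-Gsdme libraries 1 to 3 (ENSMUSG00000031266, chromosome X, 133488898 to 133501874, GRCm39). The groups were far apart: the highest LNP-Gsdme library had 175 CPM and the lowest LNP-GFP library 296. The log2 fold change was -0.97 with a SE of 0.09 (n = 3 per group, edgeR adjusted p = 0.00557). Gla passed under each of the 14 alternative fits, including each library left out, with an adjusted p of at most 0.0474, reached without LNP-GFP 3, and log2 fold changes of -1.01 to -0.91. No other gene in the deposited table overlaps its locus.

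Gaa, acid alpha-glucosidase, which degrades lysosomal glycogen and is deficient in Pompe disease, fell by 17.8%. It stood at 92.3, 102 and 93.5 CPM in the LNP-GFP libraries 1 to 3 and 79.2, 78.7 and 78.7 in the LNP-Gsdme libraries 1 to 3 (ENSMUSG00000025579, chromosome 11, 119158713 to 119176280, GRCm39). The LNP-Gsdme libraries were almost equal, all below the lowest LNP-GFP library. The log2 fold change was -0.28 with a SE of 0.07 (n = 3 per group, edgeR adjusted p = 0.0478). It did not pass when any of these libraries was left out, with the adjusted p in brackets: LNP-GFP 2 (0.0925), LNP-GFP 3 (0.159), LNP-Gsdme 1 (0.152), LNP-Gsdme 2 (0.157) or LNP-Gsdme 3 (0.0799). Nor did Gaa pass with library size as the only scaling (0.0560), limma-voom (0.0502), all genes with a count kept (0.0800) or the replicate number as a block (0.125).

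Hexa, the alpha subunit of beta-hexosaminidase A, had the highest level per length of the glycosidases (134 FPKM). It stood at 348, 248 and 295 CPM in the LNP-GFP libraries 1 to 3 and 229, 259 and 229 in the LNP-Gsdme libraries 1 to 3, with LNP-Gsdme 2 above LNP-GFP 2, and had a log2 fold change of -0.31 (-0.63 to 0.00, adjusted p = 0.161). Man2b1, lysosomal alpha-mannosidase, and Glb1, beta-galactosidase, did not overlap between the groups and did not pass, at log2 fold changes of -0.33 (-0.62 to -0.05) and -0.23 (-0.42 to -0.04). The Glb1 locus holds Tmppe, with 18.8% as many counts. Gusb, beta-glucuronidase, lay at -0.02 (-0.35 to 0.30), and Neu1, the sialidase, was the 1 glycosidase above 0, at 0.22 (0.00 to 0.44, adjusted p = 0.162).

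**Figure D2:**
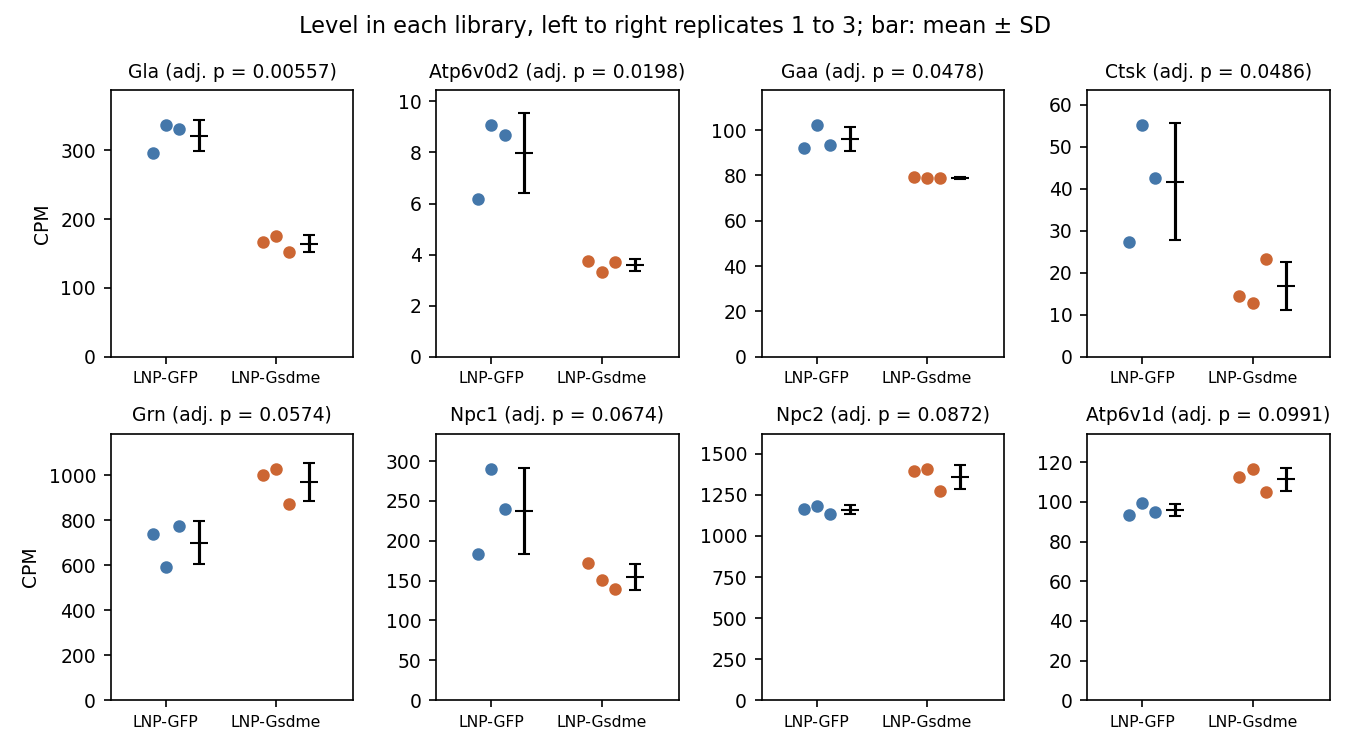
CPM in each library (points, replicates 1 to 3 from left to right, bar with mean ± SD beside them) for the 4 lysosomal genes that passed the test, top row, and the 4 with the next smallest adjusted p, bottom row. The LNP-Gsdme points of Gla lie between 152 and 175 CPM, below LNP-GFP points of 296 to 336, and Grn and Npc2 are higher in LNP-Gsdme without passing.

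Promoter windows are shown for the genes that fell and had a window, and for close comparisons among genes that did not pass. E-boxes in such windows are the sites through which TFEB and TFE3 are known to act. RefSeq windows on GRCm38.p6, from 250 bases before to 50 bases after a start, were found for 35 of the 43 genes. Atp6v0d2, which fell, had no window and is left out of the motif counts. Both strands were covered by searching the letters CACGTG and TCACGTGA, each its own reverse complement, and every TCACGTGA holds a CACGTG. A window with CACGTG was found for 13 of the 35 genes (37.1%), against 8.09% of 27025 genes with windows. TCACGTGA was found for 7 of the 35, against 1.12% of those genes. A match is a description of the letters and not a measured site. The windows of 5 genes follow, 5′ to 3′ on the gene's strand, with CACGTG in capitals and with its flanking letters where they complete TCACGTGA. They are Gla (chrX:134600956-134601255, minus strand), Gaa (chr11:119267713-119268012, plus strand) and Ctsk (chr3:95498960-95499259, plus strand), which fell, Ctsd (chr7:142387778-142388077, minus strand), a cathepsin with the longer motif that did not pass, and Atp6v0d1 (chr8:105566015-105566314, minus strand), the isoform partner of Atp6v0d2.
Gla: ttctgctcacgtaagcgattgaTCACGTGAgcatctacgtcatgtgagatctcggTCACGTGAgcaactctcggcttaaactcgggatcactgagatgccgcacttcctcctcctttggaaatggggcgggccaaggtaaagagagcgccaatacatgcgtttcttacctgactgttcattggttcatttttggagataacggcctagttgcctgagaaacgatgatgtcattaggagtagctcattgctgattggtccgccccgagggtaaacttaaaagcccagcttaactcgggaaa
Gaa: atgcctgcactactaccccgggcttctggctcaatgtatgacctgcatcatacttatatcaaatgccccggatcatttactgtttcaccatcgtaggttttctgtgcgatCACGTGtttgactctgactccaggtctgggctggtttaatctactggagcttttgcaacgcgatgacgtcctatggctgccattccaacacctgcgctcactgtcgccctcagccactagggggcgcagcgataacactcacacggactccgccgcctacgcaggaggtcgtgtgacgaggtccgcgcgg
Ctsk: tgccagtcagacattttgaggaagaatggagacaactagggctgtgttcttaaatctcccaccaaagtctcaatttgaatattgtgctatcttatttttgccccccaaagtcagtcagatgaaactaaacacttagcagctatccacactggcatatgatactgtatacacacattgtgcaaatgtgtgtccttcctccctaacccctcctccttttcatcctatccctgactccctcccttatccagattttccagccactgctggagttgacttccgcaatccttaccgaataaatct
Ctsd: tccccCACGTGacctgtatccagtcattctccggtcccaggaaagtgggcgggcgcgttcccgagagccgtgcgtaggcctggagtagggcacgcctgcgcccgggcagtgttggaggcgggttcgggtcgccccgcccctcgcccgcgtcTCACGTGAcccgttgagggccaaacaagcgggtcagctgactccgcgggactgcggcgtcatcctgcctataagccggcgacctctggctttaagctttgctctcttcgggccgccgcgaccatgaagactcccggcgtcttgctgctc
Atp6v0d1: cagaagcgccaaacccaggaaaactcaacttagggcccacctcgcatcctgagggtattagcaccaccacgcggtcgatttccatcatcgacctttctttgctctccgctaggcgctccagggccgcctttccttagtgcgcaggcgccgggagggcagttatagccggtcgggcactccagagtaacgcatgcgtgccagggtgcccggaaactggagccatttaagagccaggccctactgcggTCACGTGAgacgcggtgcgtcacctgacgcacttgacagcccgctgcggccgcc

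The Gla window holds 2 copies of TCACGTGA, starting with CACGTG at positions -227 and -194 from the RefSeq start. That of Gaa holds 1 CACGTG at -140 without the longer motif, and that of Ctsk holds 0. The same letters stand in windows of genes that did not pass: 1 of the 2 Ctsa windows holds 2 copies of TCACGTGA, at -12 and 6, Ctsd holds 1 copy of it among 2 CACGTG, and Lamp1 holds 4 CACGTG. Of the 13 genes with CACGTG, 2 fell, with a median log2 fold change of -0.06, and of the 22 without it, 1 fell, with a median of -0.02. For the 7 genes with TCACGTGA the log2 fold changes ran from -0.97 to 0.16, with a median of -0.10.

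**Figure D3:**
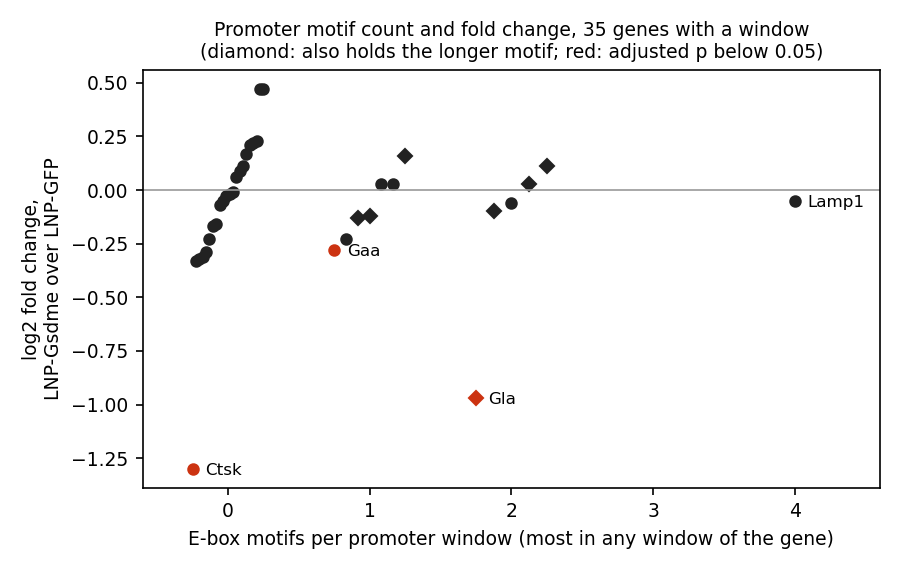
Log2 fold change (LNP-Gsdme over LNP-GFP, y axis) of the 35 genes with a promoter window against the most E-box motifs in any of the gene's windows (x axis), with diamonds for genes that also hold the longer motif and red for genes that passed the test (points at 1 motif count are spread sideways to be seen). Gla stands apart at -0.97 with 2 motifs, and the other genes with 1 or more motifs lie between -0.28 and 0.16.

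The factors themselves were low and did not pass. Tfeb stood at 20.5, 30.1 and 25.1 CPM in the LNP-GFP libraries 1 to 3 and 32.7, 29.8 and 22.9 in the LNP-Gsdme libraries 1 to 3, with overlapping groups, and had a log2 fold change of 0.17 (-0.27 to 0.62). Tfe3 stood at 109.9, 148 and 120.1 CPM in the LNP-GFP libraries 1 to 3 and 134, 120.4 and 119.6 in the LNP-Gsdme libraries 1 to 3, with the LNP-Gsdme values inside the LNP-GFP range, and had a log2 fold change of -0.01 (-0.31 to 0.28). Per gene length they were among the lowest of the 43 genes, at 2.90 and 6.05 FPKM. These are transcript levels, and the activity of both factors is known to be set largely by phosphorylation and nuclear entry, which RNA levels do not show.

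Among the 6 lipid-handling genes 0 passed, and the pair of Niemann-Pick type C genes lay on opposite sides of 0. Psap, which encodes prosaposin, the precursor of the saposins that present sphingolipids to hydrolases, had the highest level per length of all 43 genes (1560.3 FPKM). It stood at 7701, 6215 and 6889 CPM in the LNP-GFP libraries 1 to 3 and 6404, 5195 and 5037 in the LNP-Gsdme libraries 1 to 3. LNP-Gsdme 1 exceeded LNP-GFP 2, and the log2 fold change was -0.32 (-0.63 to -0.02, adjusted p = 0.141). Npc2, the soluble protein that hands cholesterol to NPC1, stood at 1165, 1183 and 1134 CPM in the LNP-GFP libraries 1 to 3 and 1394, 1409 and 1276 in the LNP-Gsdme libraries 1 to 3. All LNP-Gsdme libraries lay above all LNP-GFP libraries, with a log2 fold change of 0.23 (0.05 to 0.40, adjusted p = 0.0872). Npc1, the membrane transporter that exports the cholesterol, stood at 183, 290.5 and 239.5 CPM in the LNP-GFP libraries 1 to 3 and 172, 151 and 139.9 in the LNP-Gsdme libraries 1 to 3. All its LNP-Gsdme libraries lay below all LNP-GFP libraries, with a log2 fold change of -0.62 (-1.05 to -0.20, adjusted p = 0.0674). Leaving out LNP-GFP 1 made Npc1 pass (edgeR adjusted p = 0.0189), and leaving out LNP-GFP 3 did not (0.191). The Npc1 locus overlaps Rmc1, with 16.0% as many counts. DESeq2 called Npc1 lower and Npc2 higher with all 6 libraries. In edgeR, Npc2 did not pass without LNP-GFP 3 either (adjusted p = 0.245). Whether the 2 genes differed from each other was not tested. Lipa, lysosomal acid lipase, lay at -0.17 (-0.37 to 0.04), Gm2a, the GM2 ganglioside activator, at -0.16 (-0.42 to 0.11) and Asah1, acid ceramidase, at 0.07 (-0.23 to 0.37).

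The membrane proteins had the narrowest spread of any larger class, with log2 fold changes from -0.12 to 0.11, and 0 of 5 passed. Lamp1 and Lamp2, heavily glycosylated proteins that coat the inner face of the lysosomal membrane, were the most abundant per length, at 312 and 64.9 FPKM. Lamp1 stood at 930.3, 888 and 892 CPM in the LNP-GFP libraries 1 to 3 and 888, 894 and 839 in the LNP-Gsdme libraries 1 to 3. Lamp2 stood at 645, 633 and 601 CPM in the LNP-GFP libraries 1 to 3 and 706, 681 and 619 in the LNP-Gsdme libraries 1 to 3. Both overlapped between groups, and their intervals were -0.21 to 0.11 and -0.09 to 0.28 on the log2 scale. Scarb2, the receptor that carries glucocerebrosidase to lysosomes, was even between libraries, at 201 to 219 CPM. Cd164, a sialomucin, did not overlap between the groups, at a log2 fold change of -0.12 (-0.29 to 0.05). Mcoln1, the lysosomal calcium channel TRPML1, had the lowest level of the class (2.85 FPKM) and a log2 fold change of 0.11 (-0.20 to 0.41).

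Grn, which encodes progranulin, a secreted and lysosomal glycoprotein cut into granulins, had the smallest adjusted p above the threshold. It stood at 738, 591 and 772 CPM in the LNP-GFP libraries 1 to 3 and 1003, 1029 and 872 in the LNP-Gsdme libraries 1 to 3. All LNP-Gsdme libraries lay above all LNP-GFP libraries. The log2 fold change was 0.47 with a SE of 0.12 (n = 3 per group, 0.17 to 0.76, edgeR adjusted p = 0.0574). It passed with DESeq2 (adjusted p = 0.00875) and with library size as the only scaling (edgeR adjusted p = 0.0490), and not without LNP-GFP 3 (adjusted p = 0.124).

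The V-ATPase showed 1 fall and 0 rises among 13 genes, where 5.32% of all tested genes fell and 6.30% rose. Without LNP-GFP 3, 0 of the 13 fell or rose. The 12 others had intervals within 2-fold. In the V0 sector Atp6v0c, the proton-binding ring subunit c, stood at 481, 563 and 531 CPM in the LNP-GFP libraries 1 to 3 and 541, 521 and 484 in the LNP-Gsdme libraries 1 to 3 (114 FPKM). Its log2 fold change was -0.03 (-0.24 to 0.18). The processed pseudogene Atp6v0c-ps2 was given 55.3% as many counts, so reads of the 2 copies may have been split, and its own log2 fold change was -0.12 (adjusted p = 0.445). Atp6v0b, a related ring subunit, and Atp6v0a1, an isoform of the large subunit a, lay at -0.06 (-0.25 to 0.13) and -0.07 (-0.33 to 0.20).

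In the V1 sector 0 of 6 passed. Atp6v1b2 and Atp6v1a, subunits B and A, which form the ATP-hydrolysing head, were the most abundant per length, at 56.6 and 37.4 FPKM. Atp6v1b2 stood at 279, 437 and 356 CPM in the LNP-GFP libraries 1 to 3 and 391, 396 and 371 in the LNP-Gsdme libraries 1 to 3, and the LNP-GFP libraries enclosed the LNP-Gsdme ones. Atp6v1a stood at 324, 364 and 338 CPM in the LNP-GFP libraries 1 to 3 and 322, 327 and 288 in the LNP-Gsdme libraries 1 to 3, with LNP-Gsdme 2 above LNP-GFP 1. Their log2 fold changes were 0.11 (-0.27 to 0.49) and -0.13 (-0.33 to 0.07). Of the rotor and stalk subunits, Atp6v1d, the central shaft, lay at 0.21 (0.04 to 0.39, adjusted p = 0.0991) with groups that did not overlap. Atp6v1c1, Atp6v1e1 and Atp6v1h, a regulatory subunit, lay at 0.12 (-0.06 to 0.31), -0.29 (-0.71 to 0.13) and -0.01 (-0.23 to 0.21).

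The accessory proteins did not pass either. Atp6ap1, which takes part in pump assembly, stood at 166, 175 and 138 CPM in the LNP-GFP libraries 1 to 3 and 196, 170.1 and 134 in the LNP-Gsdme libraries 1 to 3. The LNP-Gsdme range enclosed the LNP-GFP values, at a log2 fold change of 0.06 (-0.32 to 0.44). Atp6ap2, the (pro)renin receptor, stood at 209, 244 and 226 CPM in the LNP-GFP libraries 1 to 3 and 197, 201 and 182 in the LNP-Gsdme libraries 1 to 3. There the groups did not overlap, at a log2 fold change of -0.23 (-0.43 to -0.03, adjusted p = 0.124).

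Atp6v0d2, the subunit d isoform known from osteoclasts and macrophages, fell by 54.9%, and Atp6v0d1, the widely expressed isoform, did not pass. Atp6v0d2 stood at 6.19, 9.07 and 8.69 CPM in the LNP-GFP libraries 1 to 3 and 3.76, 3.31 and 3.71 in the LNP-Gsdme libraries 1 to 3 (ENSMUSG00000028238, chromosome 4, 19876841 to 19922605, GRCm39). All LNP-Gsdme libraries were below 4 CPM and all LNP-GFP libraries above 6 CPM. The log2 fold change was -1.15 with a SE of 0.19 (n = 3 per group, edgeR adjusted p = 0.0198). It did not pass when any of these libraries was left out, with the adjusted p in brackets: LNP-GFP 3 (0.107), LNP-Gsdme 1 (0.0849) or LNP-Gsdme 2 (0.0866). Nor did Atp6v0d2 pass with the replicate number as a block (0.0694). Atp6v0d1 stood at 187, 193 and 187 CPM in the LNP-GFP libraries 1 to 3 and 213, 227 and 195 in the LNP-Gsdme libraries 1 to 3, and its log2 fold change was 0.16 (-0.03 to 0.35, adjusted p = 0.210). Per gene length, Atp6v0d2 made up 2.50, 3.52 and 3.48% in LNP-GFP 1 to 3 and 1.35, 1.12 and 1.46% in LNP-Gsdme 1 to 3 of the FPKM of both isoforms. It was the minor isoform in all 6 libraries, and its share was lower in each LNP-Gsdme library than in any LNP-GFP library. Counts of this gene were few, 706 in all, so counting error is larger for it than for the others that fell.

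Isoforms of the other subunits were led by 1 gene each. For subunit a, Tcirg1, the a3 isoform of osteoclasts and lysosomes, made up 81.3 to 85.9% of the FPKM of its 4 isoforms, Atp6v0a1 7.23 to 9.90% and Atp6v0a2 6.79 to 9.42%, while the kidney isoform Atp6v0a4 had 14 counts in all. Tcirg1 had a log2 fold change of 0.00 (adjusted p = 0.999). The tissue-restricted isoforms Atp6v1b1, Atp6v1c2 and Atp6v1e2 had 2, 0 and 0 counts over the 6 libraries, against 43580 for Atp6v1b2, 15768 for Atp6v1c1 and 24523 for Atp6v1e1.

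**Figure D4:**
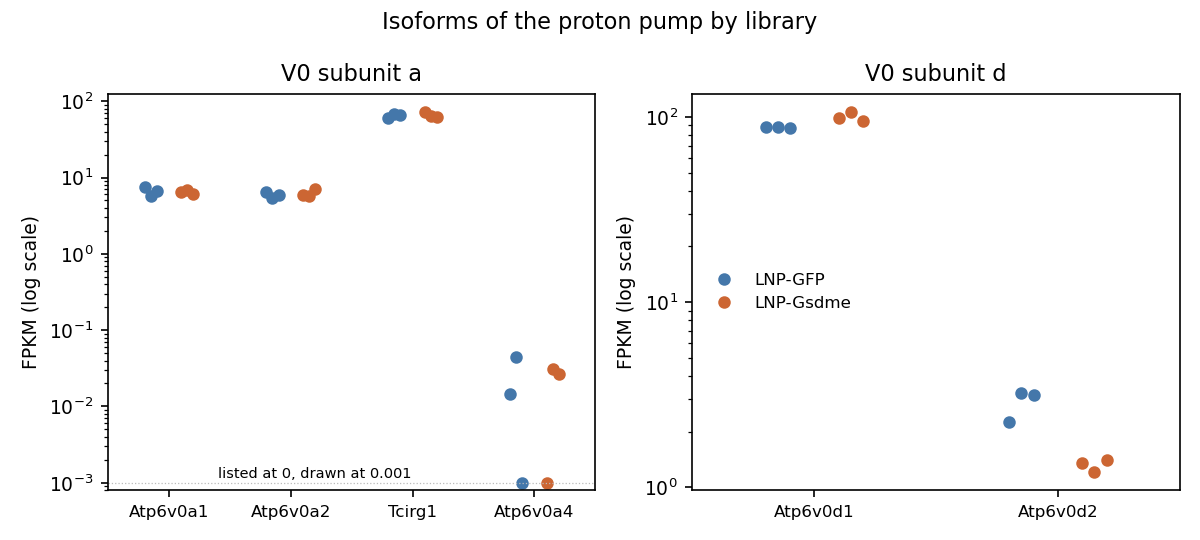
FPKM on a log axis of the isoform genes of V-ATPase subunits a (left) and d (right), 1 point per library, with values of 0 drawn at 0.001. Tcirg1 and Atp6v0d1 are the most abundant isoform of their subunit in every library, and Atp6v0d2 is lower in the 3 LNP-Gsdme libraries than in the 3 LNP-GFP libraries.

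Summed levels overlapped between the groups for most classes. The 43 genes summed to 31477, 27705 and 29415 CPM in LNP-GFP 1 to 3 and 30618, 28645 and 26283 in LNP-Gsdme 1 to 3. Proteases summed to 14367, 12017 and 13142 CPM in LNP-GFP 1 to 3 and 14551, 13747 and 12512 in LNP-Gsdme 1 to 3, and the pump to 2435, 2907 and 2629 CPM in LNP-GFP 1 to 3 and 2665, 2702 and 2469 in LNP-Gsdme 1 to 3. Of the classes with more than 1 gene, only the glycosidases had sums that did not overlap. They came to 1491, 1313 and 1399 CPM in LNP-GFP 1 to 3 and 1127, 1183 and 1003 in LNP-Gsdme 1 to 3, and the separation rests on Gla: without it the sums were 1195, 977 and 1067 CPM in LNP-GFP 1 to 3 and 961, 1008 and 851 in LNP-Gsdme 1 to 3, which overlap. Among the LNP-GFP libraries, the coefficient of variation of a gene ran from 0.850% for Scarb2 to 33.4% for Ctsk.

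**Figure D5:**
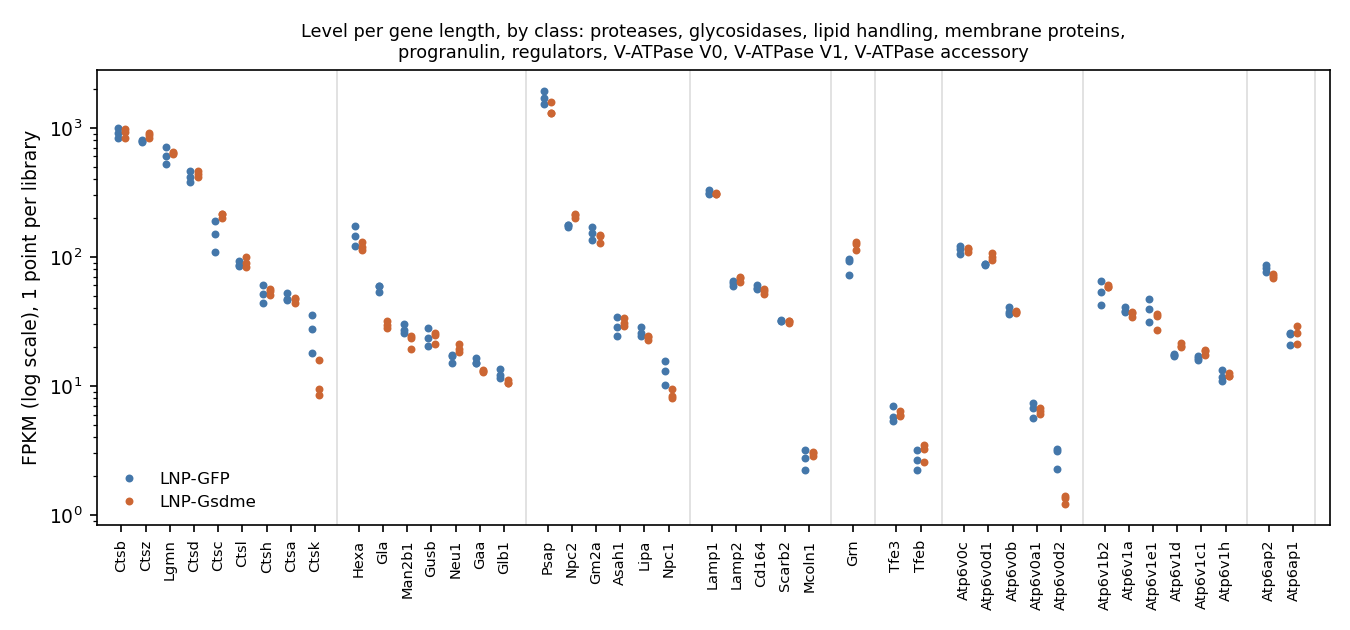
FPKM on a log axis of each of the 43 genes, 1 point per library, in blue for LNP-GFP and orange for LNP-Gsdme, ordered by level within each role. Psap and Ctsb lie highest, near 1560 and 912 FPKM on average, and Atp6v0d2 lies lowest, at 2.10.

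Among 106 further lysosomal genes, calls went in both directions. Of 100 tested, 8 rose and 7 fell, near the 6.30% and 5.32% of all tested genes, with a median log2 fold change of 0.07, and without LNP-GFP 3, 0 rose and 0 fell (edgeR unadjusted p below 0.05 without any library left out: 21 higher and 15 lower, against 16.1% and 15.4% of all tested genes). Dnase2a, the acid DNase that degrades engulfed DNA, rose, at 40.5, 48.9 and 39.0 CPM in the LNP-GFP libraries 1 to 3 and 72.4, 71.5 and 69.3 in the LNP-Gsdme libraries 1 to 3 (log2 fold change 0.73, adjusted p = 0.0131). Lamtor3 and Lamtor1, subunits of the Ragulator complex that anchors mTORC1 to lysosomes, rose by log2 fold changes of 0.42 ± 0.08 and 0.35 ± 0.07, and Cln3, a membrane protein mutated in Batten disease, by 0.38 ± 0.08 (SE, n = 3 per group).

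Among the further genes that fell, Ctsf, a cysteine cathepsin, changed most, at 4.19, 5.91 and 4.85 CPM in the LNP-GFP libraries 1 to 3 and 0.449, 0.998 and 1.60 in the LNP-Gsdme libraries 1 to 3 (log2 fold change -2.28, adjusted p = 0.0237). Scpep1, a serine carboxypeptidase, and Pld3, a lysosomal exonuclease, had log2 fold changes of -0.37 ± 0.07 and -0.33 ± 0.06 (SE, n = 3 per group). Acp5, the tartrate-resistant acid phosphatase of osteoclasts and macrophages, stood at 89.4, 102 and 92.8 CPM in the LNP-GFP libraries 1 to 3 and 71.9, 63.1 and 52.0 in the LNP-Gsdme libraries 1 to 3 (log2 fold change -0.61, adjusted p = 0.0336). By class, 2 of 9 proteases and cystatins (protease inhibitors, here Cst3 and Cstb) fell and 0 rose, 2 of 36 hydrolases and proteins that process or sort them rose and 3 fell, and 3 of 23 genes listed for the membrane rose and 1 fell. Of 20 regulators, 3 rose and 1 fell, and of 12 pump or pump-associated genes 0 passed (edgeR unadjusted p below 0.05: 1 higher and 1 lower). Over all tested genes 6.30% rose and 5.32% fell. None of the calls in these classes was kept without LNP-GFP 3.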

How the data were processed

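The authors deposited 1 table of raw counts (whole numbers, not normalized) and FPKM for 56980 genes in 6 libraries, per the file headers. GRCm39 was the genome, as named in the submitters' processing notes. No aligner, counter, strand setting or annotation version is given in the sources used here. FPKM in the deposited table scales those counts by gene length and library total, which held within 0.00178% for 11356 genes tested (more than 50 counts in every library), and served only to set levels of genes side by side. Libraries were paired-end TruSeq libraries, per the labels' protocols.

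The counts were tested with edgeR 4.0.16 (R 4.3.3): filterByExpr left 16010 genes, TMM scaled the libraries (factors 0.980 to 1.04), and the robust quasi-likelihood test compared the groups, two-sided, with Benjamini-Hochberg adjustment and a threshold of 0.05. The common dispersion was equal to a biological coefficient of variation of 0.193. CPM values use TMM-scaled library sizes. The 95% intervals use each gene's SE and its total degrees of freedom, the residual ones plus those of the quasi-likelihood prior. The procedure was tested on simulated data. Total counts were 15991826 to 22932095 per library, and counting error weighs most on low genes such as Atp6v0d2 and Ctsf.

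The members and gene lists were chosen with earlier results of these data known. The lists of 106 other lysosomal genes and 10 marker lists were matched by symbol, 2 genes through a synonym in a RefSeq table of GRCm38.p6. All 43 members are named. Values in every library are given for those that passed and for the 2 members of each class with the highest FPKM. Of the other lysosomal genes, up to 4 with the smallest p in each direction are named. Pump isoforms, Ctsc, Npc1, Itgam, Ly6c2, Ly6g, Itgae and Gsdme, and overlapping or copied genes, were added after their values were seen. Alternatives were DESeq2 1.42.0, limma-voom (limma 3.58.1), RLE, upper-quartile or no scaling factors, no low-count filter, a stricter one (1 CPM on average, plus 10 counts in 3 libraries), the replicate number as a block, thresholds of 0.01 and 0.1 and each library left out.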

Additional observations from a re-analysis of the deposited data

How the results depend on the processing

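Gla kept its direction and passed under all 14 alternative fits. Lysosomal genes called higher and lower, 0 and 4 as reported, became 1 and 2 with library size only, 2 and 5 with DESeq2, 0 and 2 with limma-voom, 0 and 2 with no low-count filter, 0 and 3 with the stricter filter, 0 and 1 (Gla) with the replicate number as a block, 0 and 1 at an adjusted p below 0.01 and 3 and 5 at 0.1. With 1 library left out they ranged from 0 to 1 and from 1 to 5. Other lysosomal genes, 8 and 7, became 16 and 13 with DESeq2, 4 higher with no filter, 0 and 0 with the block and at 0.01, 17 and 12 at 0.1, and 0 to 19 and 0 to 15 with 1 library left out. All genes, 1008 and 851, became 1543 and 1505 with DESeq2, 103 and 52 with the block, 131 and 52 at 0.01, 1833 and 1705 at 0.1, and 64 to 1625 and 24 to 1216 with 1 library left out. Apart from the thresholds and left-out libraries, the cause was not tested.

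The sign of 15 lysosomal genes turned in some alternative, none of them called in either fit, with a reported log2 fold change of at most 0.11 in size. With upper-quartile scaling Ctsd, Ctsh, Ctsl and Lgmn came to -0.02, -0.01, -0.02 and -0.01, and with library size only Tfe3 and Atp6v1h came to 0.02 and 0.02. With 1 library left out the log2 fold changes ran as follows: Ctsb -0.09 to 0.05, Ctsd -0.02 to 0.11, Ctsh -0.07 to 0.16, Ctsl -0.06 to 0.09, Lgmn -0.05 to 0.15, Gusb -0.11 to 0.10, Asah1 -0.03 to 0.20, Mcoln1 0.00 to 0.24, Tfe3 -0.09 to 0.12, Atp6v0a1 -0.15 to 0.03, Atp6v0b -0.09 to 0.01, Atp6v0c -0.08 to 0.03, Atp6v1b2 -0.03 to 0.29, Atp6v1h -0.07 to 0.09, Atp6ap1 -0.07 to 0.20.

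Same-numbered libraries were not taken as paired. Their deviations from the group means had correlations of 0.214, -0.237 and 0.0315, and those of differently numbered libraries ran from -0.326 to 0.319. LNP-GFP 3 lay midway between LNP-GFP 1 and LNP-GFP 2, so its deviations were small and its correlation could not show pairing. These values cannot exclude pairing.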

Other observations

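Atp6v0e2, the less abundant isoform of pump subunit e, was chosen after its values were seen. It made up 1.73, 13.6 and 8.09% in LNP-GFP 1 to 3 and 0.960, 0.991 and 4.88% in LNP-Gsdme 1 to 3 of the FPKM of both e isoforms. LNP-GFP 2 and LNP-GFP 3 stood highest and LNP-Gsdme 3 next. The summed melanoma markers, given with the library checks, had the same 3 libraries highest, in the same order, and the part of tumour cells in these values was not tested.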
